A study of Rattus norvegicus with 20 samples.

Results

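The genes described here encode Nogo, a second myelin-associated inhibitor, their receptors and co-receptors, and a receptor of scar proteoglycans. They were the 8 genes Rtn4, Omg, Rtn4r, Rtn4rl1, Rtn4rl2, Lingo1, Tnfrsf19 and Ptprs, chosen by symbol from the 30443 genes listed for each of 20 RNA-seq libraries. Each symbol had 1 entry. Adult female rats of the Long-Evans strain, outbred and wild-type and about 6 to 8 months old, gave the tissue, with 5 regions from each of the 4 animals. All 4 rats carried a hemicontusion at cervical level 4, made with an impactor set to a displacement of 0.7 mm, and an electrode array placed 2 weeks later in the motor cortex opposite the injury. In the 2 stimulated rats current was passed for 1 week, 5 hours a day at 10 Hz, in cycles of 5 minutes on and 2 minutes off, at 80% of the current that evoked a forelimb movement. The 2 control rats were connected to the stimulator without current during that period. Before it, 1 week after the implant, the wires of all 4 rats were tested with current pulses for the threshold of forelimb movement. The control rats had therefore also received these test pulses. Region 1 was subcortical white matter under the electrode and region 2 the same tissue of the opposite hemisphere, each a block of about 5 mm3. Region 3 was cervical cord rostral to the lesion, region 4 the lesion epicenter and region 5 cord caudal to it. The cord blocks held gray and white matter. Uninjured or unimplanted rats were not analysed here, so every value belongs to an injured and implanted animal.

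Nogo, encoded by Rtn4, is a reticulon of the endoplasmic reticulum that oligodendrocytes also carry in their membrane, where it can arrest a growing axon. Omg encodes oligodendrocyte myelin glycoprotein, a lipid-anchored inhibitor made by oligodendrocytes and by many neurons. Both bind the Nogo receptor, the product of Rtn4r, which has no intracellular part and relays the signal through co-receptors that include the products of Lingo1 and Tnfrsf19, the latter known as TROY. Rtn4rl1 and Rtn4rl2 encode the homologues of that receptor, and Rtn4rl2 is known as a receptor of myelin-associated glycoprotein. Ptprs encodes a receptor tyrosine phosphatase that binds chondroitin sulfate proteoglycans of the glial scar. The signal is passed to RhoA and its kinase ROCK, which act on the cytoskeleton of the growth cone.

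Values are FPKM, in which sequenced fragments are scaled to the length of the transcript and to the mapped total of the library, which allows levels of different genes to be set side by side. Isoforms of a gene are not separated. A gene was called where its adjusted p from limma was under 0.05 (Benjamini-Hochberg over the 15210 genes with at least 1 FPKM in any library), and fold changes are on the log2 scale of FPKM raised to at least 0.1. All 8 genes passed that filter. Rtn4, Rtn4rl1, Lingo1, Omg, Tnfrsf19 and Ptprs reached 1 FPKM in 20 of 20 libraries, Rtn4r in 17, and Rtn4rl2 in 8, the white matter libraries. Rtn4rl2 therefore passed through the white matter alone.

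The labelled tissues were set against cell type markers. The 8 white matter libraries held RNA of cortical excitatory neurons, with 251 to 367 summed FPKM over 4 markers (Slc17a7, Tbr1, Neurod6 and Emx1), against 1.36 to 14.4 in the 12 cord libraries. Their sum over 8 oligodendrocyte markers was 748 to 3141 FPKM, below the 7756 to 11273 of the cord. Spinal neuron markers (Slc6a5, Glra1, Chat, Slc5a7 and Mnx1) summed to 0.934 to 5.14 FPKM in white matter and 81.1 to 126 in cord. In such bulk tissue, fewer cells of a type and less RNA per cell cannot be told apart. The libraries of stimulated animal 2 from regions 1 and 2 stood apart, with a mean correlation of 0.913 and 0.912 with the other libraries of their region, against 0.957 to 0.984 for the other libraries.

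The level of each gene was first followed over the 5 regions. Rtn4 was the most abundant of the 8 genes in every library, from 90.6 FPKM in region 1 of stimulated animal 2 to 203 FPKM in region 5 of control animal 1. By its mean it ranked above 98.9% of the genes kept, and Omg above 94.4% and Ptprs above 92.6%. In the cord the order of the 8 genes was the same in all 12 libraries. It ran from Rtn4 through Omg, Ptprs, Tnfrsf19, Lingo1, Rtn4rl1 and Rtn4r to Rtn4rl2. In white matter Rtn4 stayed first, Lingo1 in the fourth place and Rtn4rl2 last in all 8 libraries. Omg and Ptprs exchanged places among libraries there, as did Rtn4r, Rtn4rl1 and Tnfrsf19.

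**Figure D1:**
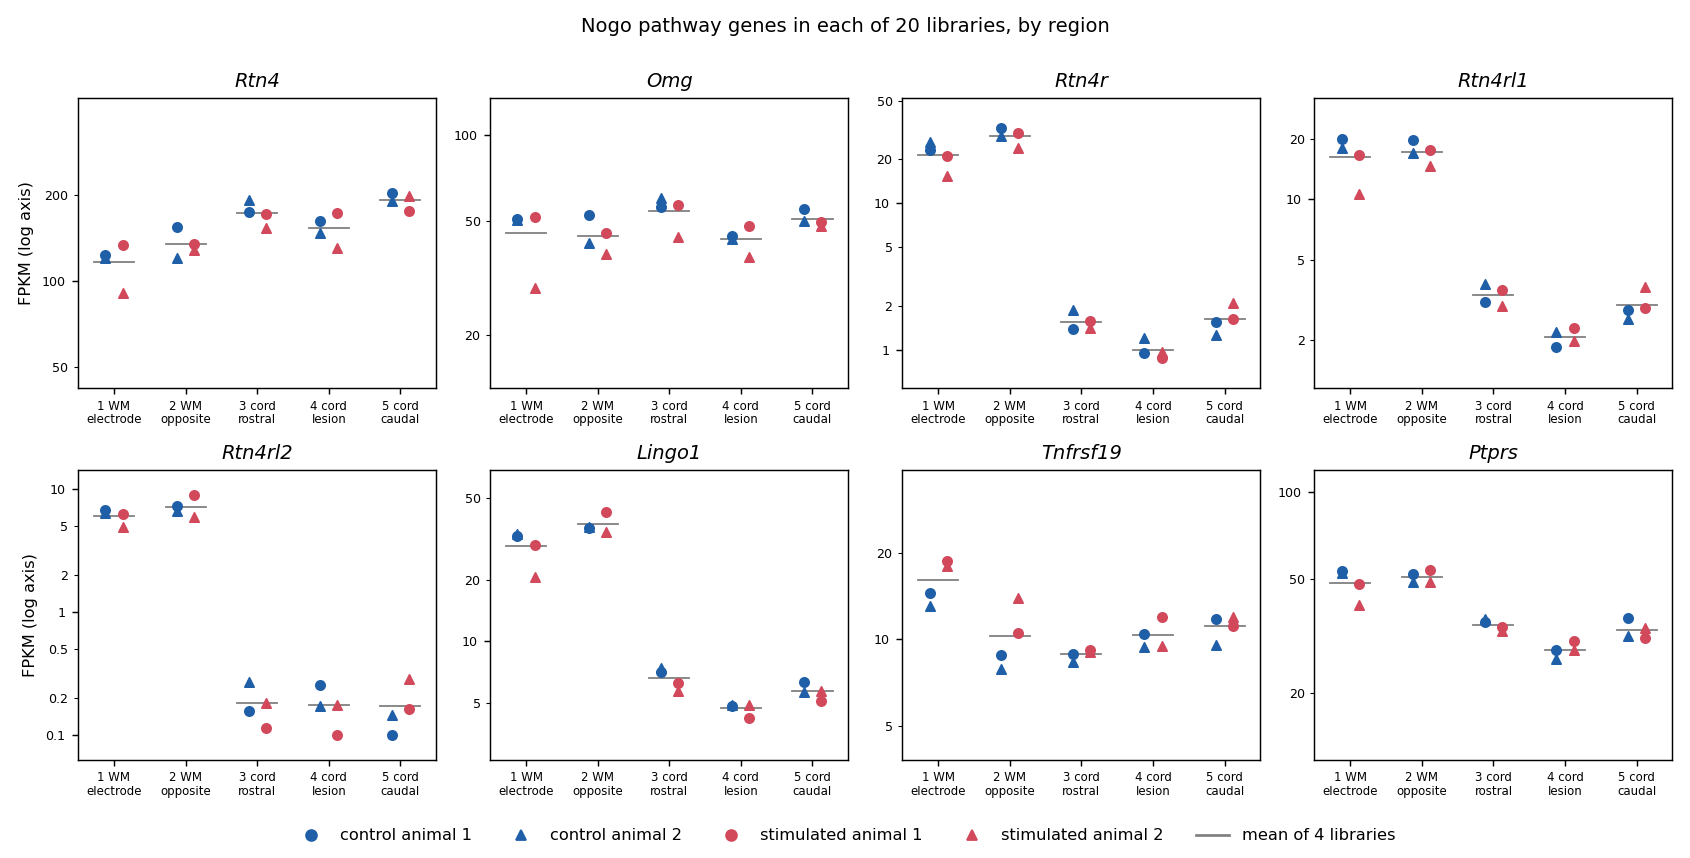
FPKM (log axis) of the 8 genes in each library by region. Blue marks are control and red marks stimulated animals, circles animal 1 and triangles animal 2, and a gray line is the mean of 4 libraries. Rtn4r, Rtn4rl1, Rtn4rl2 and Lingo1 lie far higher in regions 1 and 2 than in regions 3 to 5. Rtn4 has somewhat lower means in regions 1 and 2, and Omg lies at similar heights in all regions.

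White matter and cord were compared over all libraries (n = 8 against n = 12, with a mean for each region). Of the 8 genes, 6 were higher in white matter, 1 was lower and 1 was not called. Rtn4rl2 is among the 6, but it passed the filter through the white matter alone, which largely set its direction. Over all genes, 72.2% were called, 25% higher and 47.1% lower in white matter. Rtn4r, Rtn4rl1 and the co-receptor Lingo1 differed by 5.82- to 18.3-fold, and Rtn4rl2 by a fold whose size rested on the lowest value of the table. The proteoglycan receptor Ptprs and the co-receptor Tnfrsf19 differed by 1.55- and 1.26-fold, and the ligand genes Rtn4 and Omg by at most 1.38-fold. The median log2 fold change of the 8 genes, Rtn4rl2 included, was 1.59, beside -0.18 for all genes tested.

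Of the ligand genes, Rtn4 was lower in white matter. Its 8 white matter libraries ran from 90.6 to 155 FPKM with a median of 126, and its 12 cord libraries from 131 to 203 with a median of 174. The ranges overlapped. Rtn4 was 126 ± 18.1 FPKM in white matter (SD, n = 8) and 172 ± 21.6 in cord (SD, n = 12), a log2 fold change of -0.46 (SE 0.08, adjusted p = 2.58e-05). Omg ran from 29.2 to 52.4 FPKM in white matter (median 48.1) and from 37.6 to 60.2 in cord (median 49.0), so most libraries of the tissues lay at one height. Its log2 fold change was -0.15 (SE 0.10, adjusted p = 0.195), and a difference was not shown. Oligodendrocyte markers, in the same libraries, were lower in white matter for 8 of 8.

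Omg lies within the gene Nf1 together with Evi2a and Evi2b, and reads of overlapping genes can be shared where strand is not used. The library kit keeps the strand per the labels, but the tools were run at their defaults, which do not use it, so the Omg values are uncertain to that extent. These neighbours were called lower in white matter for 3 of 3, where 47.1% of all genes were called lower. Nf1, the host gene, was at 17.2 FPKM in white matter and 19.9 in cord. Evi2a was at 16.8 ± 6.85 against 68.7 ± 7.70 FPKM (log2 fold change -2.12, SE 0.13, adjusted p = 3.09e-11), and Evi2b at 1.39 ± 0.708 against 2.23 ± 0.778 FPKM (-0.77, SE 0.21, adjusted p = 0.00259).

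Rtn4r, the Nogo receptor gene, was between 15.3 and 32.7 FPKM in white matter (median 25.1) and between 0.873 and 2.09 in cord (median 1.39). Every white matter library lay above every cord library. The means were 25.2 ± 5.56 and 1.39 ± 0.371 FPKM, an 18.3-fold difference (log2 fold change 4.19, SE 0.11, adjusted p = 8.26e-17). Without overlap of the libraries, 5 of the 8 genes were higher in white matter (Rtn4r, Rtn4rl1, Rtn4rl2, Lingo1 and Ptprs). That was so for 10.3% of all genes in this direction and for 27.1% in either. Rtn4rl2 passed the filter only through its white matter values. Its place among the 5 was thus largely set by the filter and is no support.

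Rtn4rl1 ran from 10.6 to 19.97 FPKM in white matter (median 17.3) and from 1.84 to 3.80 in cord (median 2.85), a smaller step than that of Rtn4r. It was 6.06-fold higher in white matter (log2 fold change 2.60, SE 0.10, adjusted p = 5.46e-14). Rtn4rl2 ran from 4.86 to 8.87 FPKM in white matter (median 6.40) and from 0.1 to 0.281 in cord (median 0.166). In 2 of the 12 cord libraries it stood at 0.1, the lowest value of the table, so its cord level was barely measured. The log2 fold change of Rtn4rl2 was 5.29 (SE 0.20, adjusted p = 2.47e-14) and its size rested on the floor, since a pseudocount of 1 gave 2.67. Its direction was largely set by the filter, so its test adds no support.

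The make-up of the receptor family also differed between the tissues. Rtn4r exceeded Rtn4rl1 in 8 of 8 white matter libraries and in 0 of 12 cord libraries. Of the summed FPKM of the 3 genes, Rtn4r made up 51.7 ± 3.23% in white matter and 31.7 ± 2.36% in cord, Rtn4rl1 34.7 ± 3.04% and 64.1 ± 2.98%, and Rtn4rl2 13.6 ± 1.43% and 4.16 ± 1.67%. The log2 ratio of Rtn4r to Rtn4rl1 was 1.59 higher in white matter. The two-sided exact permutation test of this ratio, with tissue labels exchanged within each animal, gave p = 0.0001, the smallest that its 10000 arrangements allow. The ratio was chosen for testing with earlier results of these data known, so this p is not independent support. The summed level of the 3 genes was 48.6 ± 8.95 FPKM in white matter and 4.36 ± 1.03 in cord. Set against the ligand gene, Rtn4 FPKM was 5.10 ± 0.749 times that of Rtn4r in white matter and 130 ± 30.2 times in cord.

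**Figure D2:**
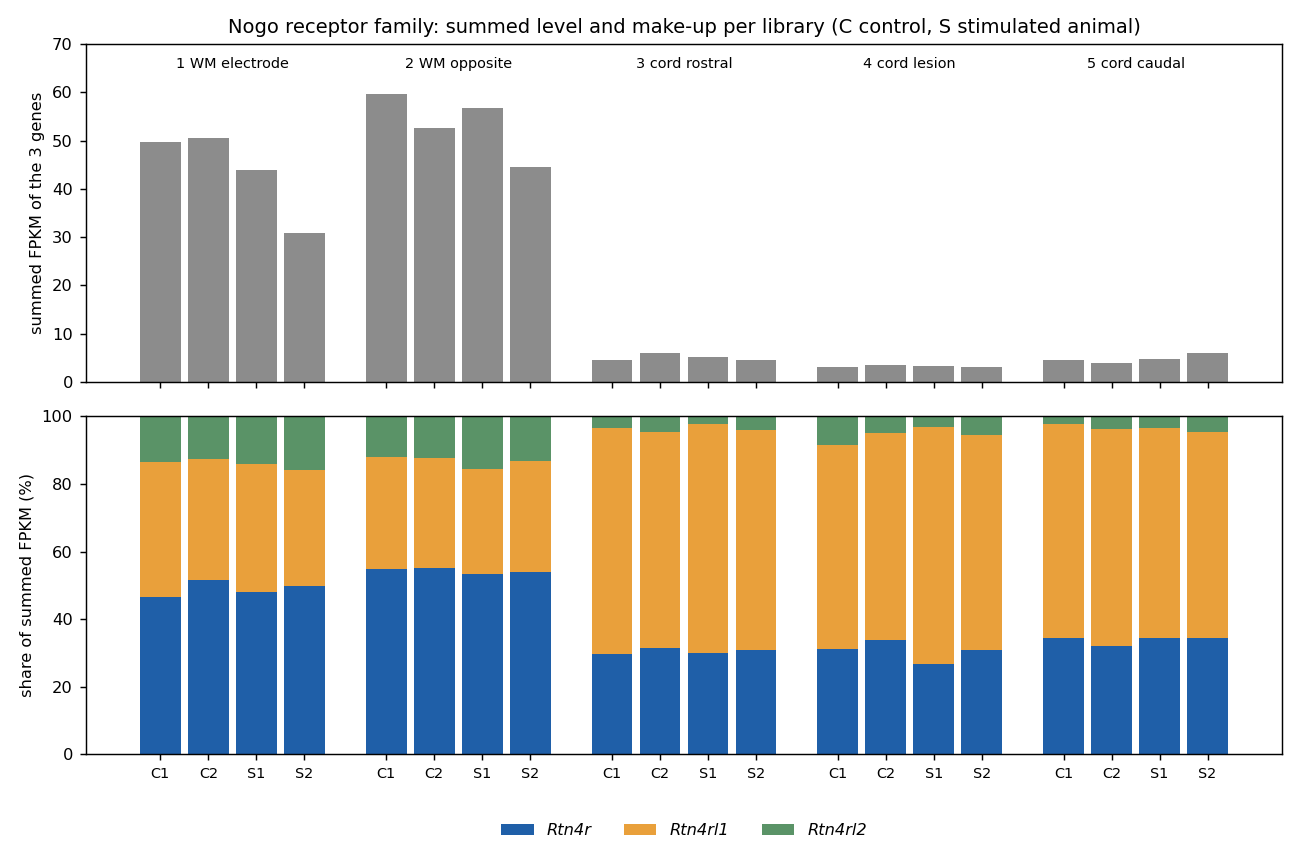
Summed FPKM of Rtn4r, Rtn4rl1 and Rtn4rl2 in each library (upper panel) and the share of each gene in that sum in percent (lower panel), by region, with C for control and S for stimulated animals. Rtn4r holds the larger share in the 8 white matter libraries and Rtn4rl1 in the 12 cord libraries.

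Among the co-receptors, Lingo1 ran from 20.6 to 42.9 FPKM in white matter (median 33.9) and from 4.23 to 7.41 in cord (median 5.67), again without overlap. It was 5.82-fold higher in white matter (log2 fold change 2.54, SE 0.08, adjusted p = 2.59e-15). Tnfrsf19 ran from 7.89 to 18.8 FPKM in white matter (median 13.5) and from 8.37 to 12.0 in cord (median 9.53). Its ranges overlapped, and its higher white matter values lay in region 1. The log2 fold change of Tnfrsf19 was 0.34 (SE 0.10, adjusted p = 0.00421). With the control libraries alone it was 0.15 (adjusted p = 0.145), which ended the call.

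Ptprs, the proteoglycan receptor gene, ran from 40.4 to 53.6 FPKM in white matter (median 50.3) and from 26.2 to 36.6 in cord (median 32.3). No libraries overlapped, although the step was small. The means of 49.5 ± 4.31 and 32.0 ± 3.34 FPKM differed by 1.55-fold (log2 fold change 0.63, SE 0.05, adjusted p = 2.97e-09).

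Markers of most cell types differed between the tissues. Those of cortical excitatory neurons were higher in white matter for 4 of 4 tested, and those of neurons in general higher for 4 and lower for 2 of 6. Lower in white matter were 8 of 8 markers of oligodendrocytes, 4 of 4 of their progenitors, 4 of 4 of spinal neurons, 4 of 4 of Schwann cells, 5 of 6 of microglia and macrophages, 2 of 3 of endothelial cells and 2 of 3 of fibroblasts, and astrocyte markers were lower for 4 and higher for 1 of 5. Tbr1 and Emx1 were under 1 FPKM in all 12 cord libraries, and Glra1, Chat, Slc5a7, Prx and Pmp2 in all 8 white matter libraries. These markers passed the filter through 1 tissue alone, which largely set their direction in the counts of cortical, spinal and Schwann cell markers. Astrocyte markers summed to 262 to 1223 FPKM in white matter and 1227 to 2704 in cord, those of microglia and macrophages to 46.7 to 245 and 91.5 to 336, and those of Schwann cells to 6.62 to 24.0 and 52.1 to 369. Their part in the differences of the 8 genes was not tested. Under quantile normalization the median of all genes moved from -0.18 to -0.04 and the share of calls that were higher in white matter from 34.7% to 45.6%, and the same 6 genes were higher and Rtn4 was lower.

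The region order was read gene by gene. Rtn4r, Rtn4rl1, Rtn4rl2, Lingo1 and Ptprs each had region 2 first and region 1 second, and the only neighbours in that order whose difference was called for all 5 were region 1 and the highest cord region (region 5 for Rtn4r, region 3 for the others), pairs between which 58.3% and 47.1% of all genes were called. Of these 5, Rtn4rl2 had passed the filter through the white matter alone. Within the cord, the step from region 3 to region 4 of Rtn4r was the other called neighbour pair. No neighbours were called for Rtn4, from region 5 (192 FPKM) through 3, 4 and 2 to region 1 (117 FPKM), or for Omg, whose region means ran from 43.3 to 54.3 FPKM. Tnfrsf19 alone of the 8 had its highest mean in region 1, above region 5 (log2 difference 0.52, SE 0.15, adjusted p = 0.00541), a call that was lost without stimulated animal 1 (adjusted p = 0.0556).

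Promoter sequences are shown for the genes without overlap between white matter and cord that the reference held, with Omg as the gene that was not called. RefSeq promoters (250 bases before to 50 after the start, 300 bases) were matched for 6 of the 8 genes, in build GRCr8, which is later than the build of the FPKM table. All shown lie on the minus strand and are written 5′ to 3′. Capitals mark matches, on either strand, to the GC box GGGCGG (in 33.1% of 33469 promoters), the E-box CACGTG (6.42%) and the cyclic AMP response element TGACGTCA (1.83%). Another motif searched, TATAAA (14.2%), matched in none of the 6. In these sequences no match of one motif overlaps a match of another, and GC boxes may overlap each other. The motifs were chosen after the sequences had been read, and a match is a description only.
Rtn4r (chr11:96373505-96373804): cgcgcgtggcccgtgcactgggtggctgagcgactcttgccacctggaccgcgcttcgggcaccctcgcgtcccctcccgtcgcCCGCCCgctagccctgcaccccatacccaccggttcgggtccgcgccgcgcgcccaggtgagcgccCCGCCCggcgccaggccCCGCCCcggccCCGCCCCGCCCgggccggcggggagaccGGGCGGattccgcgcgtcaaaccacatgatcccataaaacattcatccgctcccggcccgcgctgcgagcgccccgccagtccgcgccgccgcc
Rtn4rl2 (chr3:90377726-90378025): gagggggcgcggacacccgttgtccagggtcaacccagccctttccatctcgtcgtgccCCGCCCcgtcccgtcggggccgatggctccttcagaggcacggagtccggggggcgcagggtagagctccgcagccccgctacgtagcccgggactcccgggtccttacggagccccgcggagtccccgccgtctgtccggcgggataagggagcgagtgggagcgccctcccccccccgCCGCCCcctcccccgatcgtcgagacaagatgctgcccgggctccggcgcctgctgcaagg
Lingo1 (chr8:65924117-65924416): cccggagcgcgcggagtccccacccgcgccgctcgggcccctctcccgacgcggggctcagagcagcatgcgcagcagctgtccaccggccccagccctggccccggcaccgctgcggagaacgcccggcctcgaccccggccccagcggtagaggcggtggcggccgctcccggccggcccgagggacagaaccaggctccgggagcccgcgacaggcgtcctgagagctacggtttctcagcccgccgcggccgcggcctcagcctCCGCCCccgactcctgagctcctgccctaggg
Ptprs (chr9:1394042-1394341): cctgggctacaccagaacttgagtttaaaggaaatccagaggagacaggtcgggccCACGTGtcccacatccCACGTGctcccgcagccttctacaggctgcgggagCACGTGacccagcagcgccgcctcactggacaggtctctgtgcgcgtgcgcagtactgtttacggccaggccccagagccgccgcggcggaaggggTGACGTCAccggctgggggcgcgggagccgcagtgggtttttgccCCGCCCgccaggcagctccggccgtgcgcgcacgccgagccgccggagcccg
Omg (chr10:64962001-64962300): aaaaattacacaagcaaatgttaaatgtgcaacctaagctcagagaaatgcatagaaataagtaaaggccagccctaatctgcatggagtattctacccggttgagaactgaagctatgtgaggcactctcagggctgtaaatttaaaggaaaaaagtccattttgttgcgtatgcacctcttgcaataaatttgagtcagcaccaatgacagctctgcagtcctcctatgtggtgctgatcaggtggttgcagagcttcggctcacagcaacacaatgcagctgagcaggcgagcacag

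The 300 bases of Rtn4r held 6 GC boxes and were 78% G and C, more than in 98.4% of promoters. Lingo1 was also at 78% and held 1 GC box, and Rtn4rl2 was at 74% and held 2. Ptprs was at 69.7%, with 1 GC box, 3 E-boxes and 1 cyclic AMP response element. Omg was at 44.7% and Tnfrsf19, not shown, at 45.3%, and neither held a match to these motifs. The median over all promoters was 51.7%.

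Other genes of the pathway were followed as lists, each counted in the same fit. The shares to set beside each count are those over all genes, 25% higher and 47.1% lower in white matter. Among other ligands and relatives of the receptors, 2 of 6 were higher and 4 lower in white matter. Mag, the gene of the third myelin inhibitor, was at 45.0 ± 19.6 against 194 ± 26.8 FPKM (log2 fold change -2.23, SE 0.12, adjusted p = 3.68e-12). Of the relatives of Lingo1, Lingo2 was at 4.31 against 1.78 FPKM and Lingo3 at 2.75 against 2.05, both higher in white matter. Lingo4, at 0.115 against 1.52 FPKM, is among the 4 that were lower. It was near the floor of 0.1 in white matter and passed the filter through the cord alone, which largely set its direction. The size of its fold rested on the floor. Relatives of Ptprs were lower, Ptprd at 28.1 against 36.1 FPKM and Ptprf at 11.4 against 13.5.

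Of the other receptors and partners, 1 of 8 tested was higher and 6 were lower. Ngfr, the low-affinity neurotrophin receptor that can take the place of Tnfrsf19 as a co-receptor, was at 0.385 ± 0.281 FPKM in white matter and 2.27 ± 1.19 in cord (log2 fold change -2.73, SE 0.20, adjusted p = 4.70e-10). Tnfrsf19 thus stood above Ngfr in both tissues. Wnk1, a kinase known to bind the Lingo1 protein, was at 19.8 against 45.8 FPKM, and Nus1, the gene of the Nogo-B receptor, at 15.3 against 14.2.

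Genes of Nogo receptor antagonists and of a protease that sheds the receptor were higher in white matter for 4 of 4 tested, in the same direction as Rtn4r. Olfm1, a secreted olfactomedin that binds the receptor, was at 273 ± 47.8 FPKM in white matter and 38.2 ± 8.21 in cord (7.17-fold, adjusted p = 4.54e-15). Mmp24, the protease, was at 13.5 against 8.04 FPKM and Crtac1, an axonal antagonist, at 16.2 against 9.72. In the reticulon list (Rtn1, Rtn2, Rtn3 and the partner gene Rtn4ip1), 2 of 4 were higher. These were Rtn1 at 327 against 176 FPKM and Rtn2 at 22.3 against 19.7, the direction opposite to that of Rtn4.

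Along the RhoA and ROCK pathway, 3 of 12 genes were higher, 7 lower and 2 not called, where 25% of all genes were higher and 47.1% lower. The median log2 fold change of this list was -0.19, beside -0.18 for all genes, so the list as a whole did not stand out. Kalrn, a guanine nucleotide exchange factor of small GTPases in neurons, was at 52.8 ± 10.5 against 2.99 ± 0.441 FPKM (log2 fold change 4.12, SE 0.09, adjusted p = 1.11e-17). Rock2 was at 33.0 against 19.3 FPKM, while Rhoa at 81.4 against 125 and Limk1 at 17.3 against 33.2 were lower in white matter. The proteoglycans that Ptprs can bind ran the other way from their receptor, with 0 of 5 higher and 4 lower, among them Acan at 0.608 against 2.47 FPKM and Vcan at 5.59 against 10.2.

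**Figure D3:**
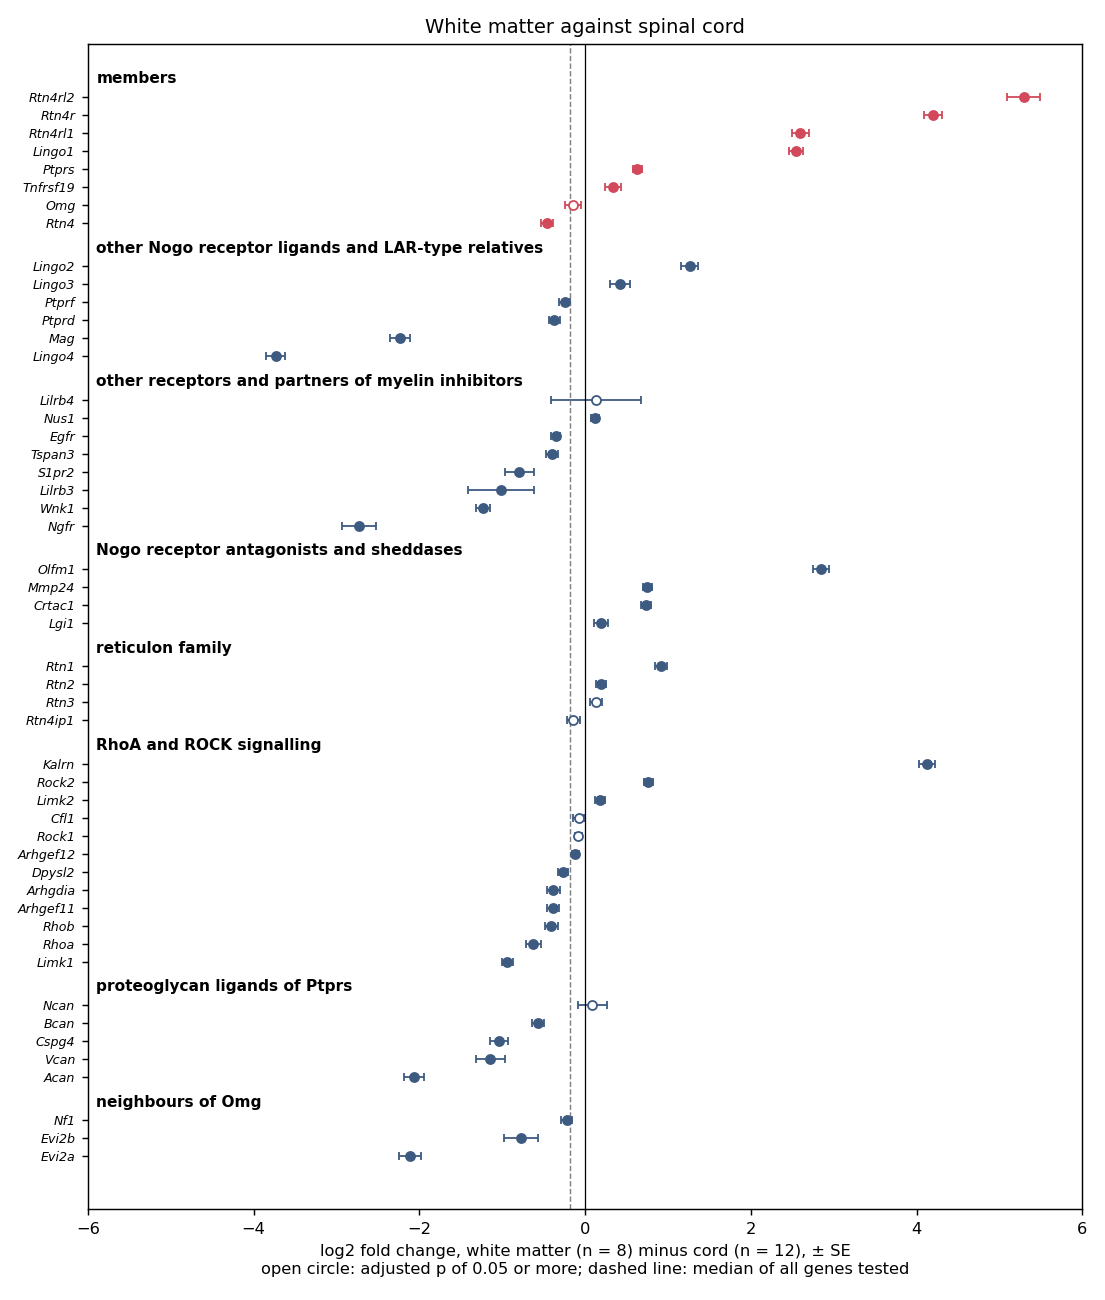
Log2 fold change with SE, white matter (n = 8) minus cord (n = 12), of the 8 genes (red) and of the other pathway genes (blue) by list. Open circles were not called and the dashed line is the median of all genes, -0.18. The receptor genes, Olfm1 and Kalrn lie farthest to the right, Mag, Ngfr and Lingo4 to the left. Rtn4rl2 passed the filter through the white matter alone and Lingo4 through the cord alone.

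The white matter under the electrode was then compared with that of the opposite hemisphere (region 1 against region 2, n = 4 each). Tnfrsf19 was the 1 of the 8 genes called, higher in region 1, where 8.61% of all genes were called and 6.86% were called higher. Its values in region 1 were 14.5 and 13.1 FPKM in control animals 1 and 2 and 18.8 and 18.1 in stimulated animals 1 and 2. In region 2 they were 8.86, 7.89, 10.5 and 14.00. Region 1 was higher in 4 of 4 animals, as for 22.2% of all genes, although the ranges overlapped. The log2 fold change was 0.66 (SE 0.15, adjusted p = 0.0123). The call was lost without control animal 1 (adjusted p = 0.125), control animal 2 (0.0715) or stimulated animal 1 (0.210).

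Lingo1 and Rtn4r had lower values in region 1 in 4 of 4 animals (12.2% of all genes) without being called. For Lingo1 they were 32.7, 33.6, 29.5 and 20.6 FPKM in region 1 and 35.9, 36.2, 42.9 and 34.3 in region 2, in the same order of animals, so the regions did not overlap (3.16% of all genes in this direction). The log2 fold change of Lingo1 was -0.38 (SE 0.13, adjusted p = 0.0737), and with the animal as a block its adjusted p was 0.0459. For Rtn4r the values were 23.1, 26.1, 21.2 and 15.3 FPKM in region 1 and 32.7, 28.9, 30.3 and 24.0 in region 2 (log2 fold change -0.45, SE 0.17, adjusted p = 0.0972). Under quantile normalization or upper-quartile scaling 4 genes were called, Tnfrsf19 higher and Rtn4, Rtn4r and Lingo1 lower in region 1. These scalings moved the median of all genes from 0.06 to -0.05 and 0.00, and the share of calls that were higher in region 1 from 79.6% to 52.9% and 58.6%. Markers of oligodendrocytes were higher in region 1 for 6 of 8 tested and those of fibroblasts for 3 of 3, and 0 of 4 cortical excitatory neuron markers were called. Their part in these values was not tested.

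The lesion epicenter was compared with the cord rostral to it (region 3 against region 4, n = 4 each). Rtn4r, Rtn4rl1, Lingo1 and Ptprs were lower at the lesion, by 1.23- to 1.61-fold, in 4 of 4 animals and without overlap. Thus 4 of the 8 genes were called, all lower at the lesion, where 19.6% of all genes were called and 12.8% in this direction. Without overlap and lower at the lesion were 15.7% of all genes, and 26.7% were lower there in 4 of 4 animals.

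Rtn4rl1 was at 3.08, 3.80, 3.53 and 2.95 FPKM in region 3 of control animals 1 and 2 and stimulated animals 1 and 2, and at 1.84, 2.18, 2.30 and 1.96 in region 4. Its log2 difference, region 3 minus region 4, was 0.69 (SE 0.16, adjusted p = 0.00697). Rtn4r was at 1.37, 1.86, 1.57 and 1.41 FPKM in region 3 and at 0.951, 1.20, 0.873 and 0.961 in region 4 (0.64, SE 0.17, adjusted p = 0.0132). Both receptor genes stood lowest of all regions at the lesion, near 1 FPKM for Rtn4r.

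Lingo1 was at 7.09, 7.41, 6.29 and 5.72 FPKM in region 3 and at 4.86, 4.86, 4.23 and 4.87 in region 4, where 3 of 4 libraries were nearly equal. Its log2 difference was 0.49 (SE 0.13, adjusted p = 0.0141). Ptprs was at 35.5, 36.0, 34.0 and 33.0 FPKM in region 3 and at 28.3, 26.2, 30.3 and 28.2 in region 4 (0.29, SE 0.08, adjusted p = 0.0186). Without control animal 1, control animal 2 or stimulated animal 1, the 4 genes were still lower at the lesion but 0 of them were called, with adjusted p of 0.0526 to 0.198. The call of Rtn4r was also lost with a pseudocount of 1 (adjusted p = 0.0622) and with control libraries alone (0.0751). Under upper-quartile scaling 54.0% of all calls were lower at the lesion, against 65.4% here.

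Omg was at 56.0, 60.2, 57.1 and 43.9 FPKM in region 3 and at 44.6, 43.2, 48.0 and 37.6 in region 4. It was lower at the lesion in 4 of 4 animals, with overlap. The log2 difference of 0.32 (SE 0.15) was not called (adjusted p = 0.149), but was with the animal as a block (adjusted p = 0.0388). Rtn4 (173 ± 15.7 against 153 ± 18.3 FPKM, adjusted p = 0.305) and Rtn4rl2, near the floor in both regions (adjusted p = 0.953), were not called. Tnfrsf19 was the 1 of the 8 genes with higher values at the lesion in 4 of 4 animals (24.1% of all genes), 8.89 ± 0.365 against 10.3 ± 1.20 FPKM, and was not called either (log2 difference -0.21, SE 0.15, adjusted p = 0.331).

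Neuron markers were lower at the lesion for 4 of 6, with sums of 869 to 1105 FPKM in region 4 and 1223 to 1536 in region 3, and markers of microglia and macrophages were higher for 3 of 6, with sums of 175 to 336 against 91.5 to 135. Spinal neuron markers were called for 0 of 4 (81.1 to 95.3 FPKM at the lesion against 97.2 to 113), and oligodendrocyte markers for 0 of 8. Their part in the lower receptor values was not tested.

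Among the other pathway genes, the antagonists and the sheddase were lower at the lesion for 4 of 4, the largest of these differences being that of Olfm1, at 43.6 ± 10.2 FPKM in region 3 and 30.7 ± 3.18 in region 4 (adjusted p = 0.0305), followed by Lgi1 at 20.9 against 16.1 (adjusted p = 0.0417). Rtn1 (206 against 136 FPKM) and Rtn2 (22.5 against 15.3), 2 of the 4 genes of the reticulon list, were lower at the lesion. So were Lingo2, 1 of 6 ligands and relatives (2.22 against 1.37), and Limk1, 1 of 12 RhoA and ROCK genes (35.4 against 27.9). Over all genes, 12.8% were called lower at the lesion.

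Of the other receptors and partners, 3 of 8 were higher at the lesion, 0 lower and 5 not called, where 6.78% of all genes were called higher. Lilrb3, of a leukocyte receptor family that includes a receptor of myelin inhibitors, was at 0.499 ± 0.0893 FPKM in region 3 and 2.08 ± 0.723 in region 4 (adjusted p = 0.0299). Lilrb4, of the same family, was listed at 0.1 FPKM in all 4 libraries of region 3 and at 1.83 to 10.4 in region 4, and Egfr was at 2.46 against 3.01. Of the proteoglycans, Cspg4 alone of 5 was higher at the lesion (4.20 ± 0.649 against 6.94 ± 1.42 FPKM, adjusted p = 0.00720), and of the neighbours of Omg, Evi2b (1.47 against 3.03, adjusted p = 0.0321).

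**Figure D4:**
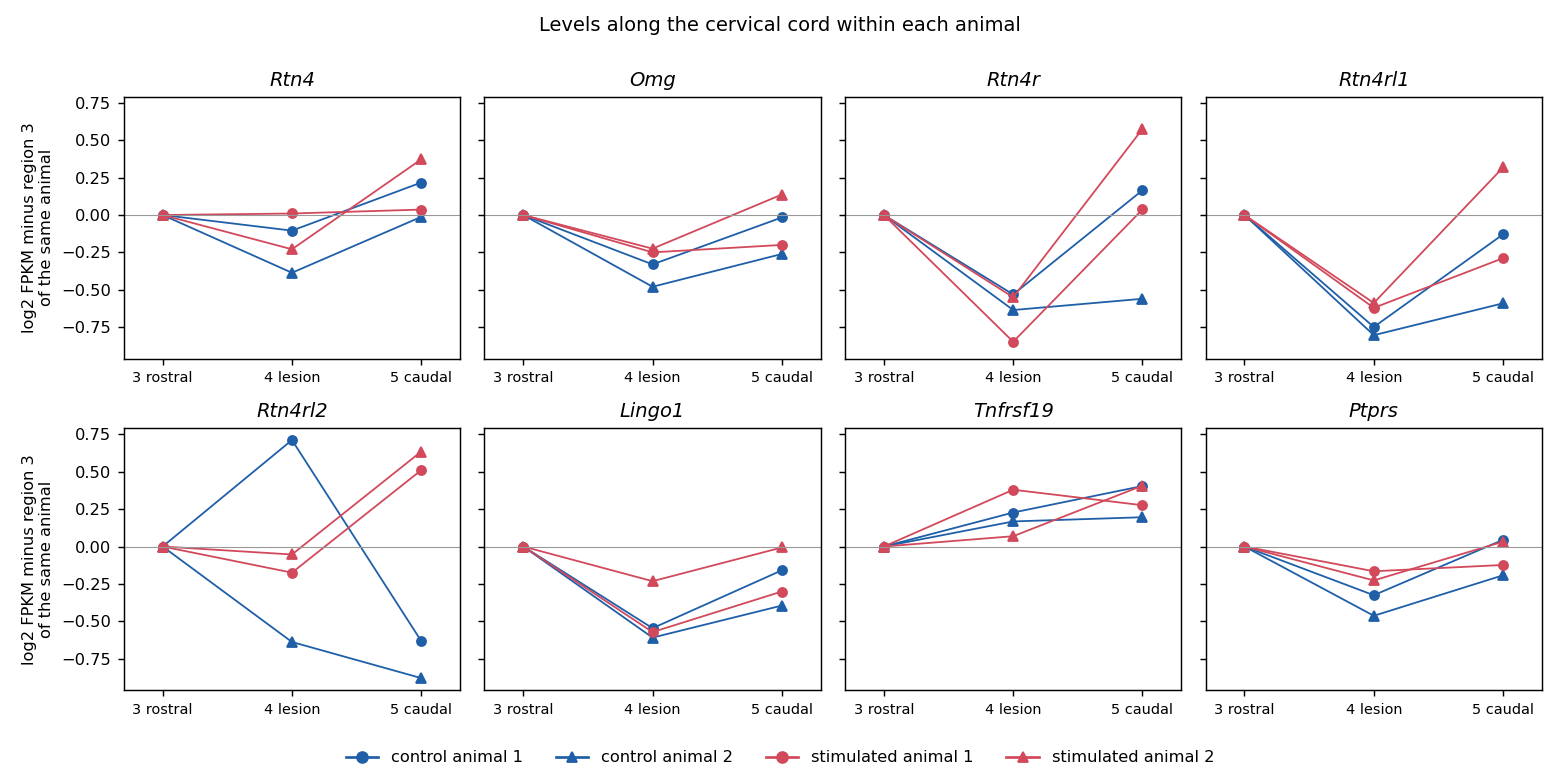
Log2 FPKM in regions 3, 4 and 5 minus that of region 3 in the same animal, 1 line for each of the 4 animals (blue control, red stimulated). Rtn4r, Rtn4rl1, Lingo1, Ptprs and Omg dip in region 4 in each animal, Tnfrsf19 does not, and Rtn4rl2, near the floor, varies among animals.

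Region 4 was also set against the caudal cord. This comparison shares the region 4 libraries with the one above. Rtn4r was the 1 of the 8 genes called (7.99% of all genes, 7.06% in the same direction), at 1.54, 1.26, 1.61 and 2.09 FPKM in region 5 and lower at the lesion in 4 of 4 animals (29.9% of all genes). Its log2 fold change, region 4 minus region 5, was -0.69 (SE 0.17, adjusted p = 0.0238), and the call was lost without control animal 1 (adjusted p = 0.218), control animal 2 (0.0536) or stimulated animal 1 (0.0825). With the animal as a block Rtn4rl1 (-0.52, adjusted p = 0.0483) and Rtn4 (-0.33, adjusted p = 0.0484) were called beside Rtn4r (adjusted p = 0.0242). Between the rostral and the caudal cord limma called 0 of the 8 genes (4.32% of all genes). Tnfrsf19 was the 1 gene with an unadjusted p under 0.05, a level for which the share of all genes was not counted here. It was at 8.93, 8.37, 9.22 and 9.04 FPKM in region 3 and at 11.8, 9.59, 11.2 and 12.0 in region 5 (log2 fold change -0.32, SE 0.15, adjusted p = 0.191). Every region 5 library lay above every region 3 library, as for 20.5% of all genes. The share of calls that were higher in the first region moved with scaling here too, from 11.7% to 41.5% under quantile normalization and 52.3% under upper-quartile scaling for regions 4 and 5, and from 35.8% to 60.8% and 64.2% for regions 3 and 5. The median log2 difference of all genes moved from -0.14 to -0.03 and 0.02, and from -0.11 to 0.02 and 0.01.

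Stimulation was compared with control within each region (n = 2 each). In limma, 0 of the 8 genes were called in any of the 5 regions, where 0%, 0%, 0%, 0% and 0.0197% of all genes were called in regions 1 to 5. At an unadjusted p under 0.05 there were 1 gene in region 1 (Tnfrsf19), 1 in region 3 (Lingo1) and 0 in regions 2, 4 and 5, where 5.44%, 1.41%, 3.43%, 2.24% and 3.59% of all genes passed in regions 1 to 5. With 2 libraries against 2, the smallest two-sided p of an exact permutation test is 0.333. The values below are therefore given with their spread.

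Tnfrsf19 had a log2 fold change above 0 in 5 of 5 regions, from 0.08 to 0.54. The regions came from the same animals, and the share of all genes with 1 direction in all 5 was not counted. With an animal left out, Tnfrsf19 reached -0.064 in region 4 and -0.032 in region 5. In region 1 Tnfrsf19 was at 14.5 and 13.1 FPKM in control and 18.8 and 18.1 in stimulated animals (log2 fold change 0.42, SE 0.11, adjusted p = 0.712 in limma). In region 2 it was 8.86 and 7.89 against 10.5 and 14.00 FPKM (0.54, SE 0.18, adjusted p = 0.949). The highest of these, 14.00, belongs to stimulated animal 2, whose library stood apart. Astrocyte markers summed to 1020 FPKM in that library and 262 to 315 in the other 3 of region 2, and microglia and macrophage markers to 245 and 46.7 to 54.3, and their part in this value was not tested. The groups did not overlap in regions 1, 2 and 3, as for 21.2%, 20.2% and 5.14% of all genes in this direction. Rtn4 and Omg had log2 fold changes below 0 in 5 of 5 regions, none larger than 1.31-fold, and stood below 0 in region 1 only through stimulated animal 2, since without it they were 0.14 and 0.03.

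In region 1 the groups did not overlap for 6 of the 8 genes (40.6% of all genes), Tnfrsf19 higher and Rtn4r, Rtn4rl1, Rtn4rl2, Lingo1 and Ptprs lower in stimulated animals (19.5% of all genes lower). Rtn4rl1 was at 19.97 and 18.1 FPKM in control and 16.6 and 10.6 in stimulated animals (log2 fold change -0.52, SE 0.26, adjusted p = 0.712). Lingo1 was at 32.7 and 33.6 against 29.5 and 20.6 FPKM (-0.43, SE 0.21, adjusted p = 0.712), and Rtn4r at 23.1 and 26.1 against 21.2 and 15.3 (-0.45, SE 0.20, adjusted p = 0.712). The lowest value of all 3 was that of stimulated animal 2, whose library stood apart. In the same 4 libraries, cortical excitatory neuron markers summed to 356 to 367 FPKM in control and 251 to 286.5 in stimulated animals. Astrocyte markers summed to 645 to 695 against 1071 to 1223, and microglia and macrophage markers to 105 to 118 against 160 to 230. Their part in these values was not tested.

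In region 3, Lingo1 was at 7.09 and 7.41 FPKM in control and 6.29 and 5.72 in stimulated animals (log2 fold change -0.27, SE 0.09, adjusted p = 0.956 in limma). Rtn4 and Ptprs were also lower and Tnfrsf19 higher there without overlap (24.7% of all genes lower, 5.14% higher). In region 4 the groups overlapped for all 8 genes (20.2% of all genes did not overlap).

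In region 5, the 3 receptor family genes had higher values in stimulated animals without overlap (18.5% of all genes in this direction). Omg was lower there without overlap (6.07% of all genes). Rtn4r was at 1.54 and 1.26 FPKM in control and 1.61 and 2.09 in stimulated animals (log2 fold change 0.39, SE 0.22, adjusted p = 1). Rtn4rl1 was at 2.82 and 2.53 against 2.89 and 3.68 FPKM (0.29, SE 0.19, adjusted p = 1), and Rtn4rl2 at 0.1 and 0.145 against 0.161 and 0.281, all near the floor. With the replicate number as a block, Rtn4rl2 was called in region 5 (adjusted p = 2.54e-09), but the numbers name different animals.

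The difference of the stimulation effect between regions 1 and 2 was tested on the difference within each animal, and limma called 0 of the 8 genes (0% of all genes). Lingo1 was the 1 gene with an unadjusted p under 0.05, with an effect in region 1 that was lower by 0.52 on the log2 scale (SE 0.13, adjusted p = 0.884), as for 3.78% of all genes. Of the other pathway genes, 0 of 42 were called with stimulation in any region, and 5, 0, 4, 1 and 1 had an unadjusted p under 0.05 in regions 1 to 5.

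**Figure D5:**
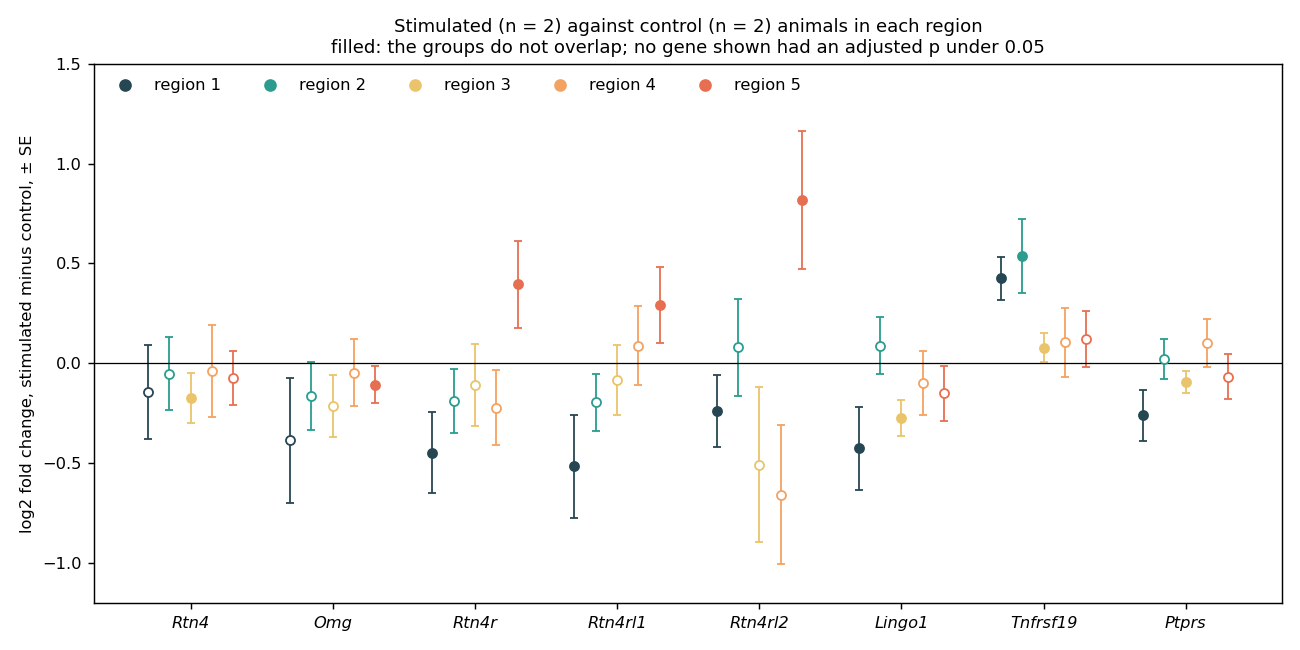
Log2 fold change with SE, stimulated (n = 2) minus control (n = 2), of the 8 genes in each region. Filled marks are genes whose groups did not overlap, and none of the values was called. Tnfrsf19 lies above 0 in all 5 regions, and Rtn4r, Rtn4rl1 and Rtn4rl2 lie below 0 in region 1 and above 0 in region 5.

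The likeness of patterns was described by Pearson's r of log2 FPKM over the 20 libraries, with 13444 genes of at least 1 FPKM on average searched. The libraries share regions, animals and scaling, so the r is a description. Rtn4r was most like Cobl, Ephx4 and Nptxr (r of 0.997, 0.996 and 0.995), Rtn4rl1 like Efnb2 and Frmpd4 (0.995 each), and Rtn4rl2 like Synpo, Mettl11b and Tbr1 (0.990, 0.989 and 0.989). For Lingo1 the genes included Cacng3 and Cap2 (0.996 each). These values rest mostly on the step between tissues. After the region means were removed, r was 0.643 to 0.704 for the genes most like Rtn4r (0.702 for Cobl) and 0.306 to 0.567 for those most like Rtn4rl2.

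Genes with less of a step were matched on finer variation. Ptprs was most like Aak1, Dab2ip and Rapgefl1 (r of 0.993, 0.993 and 0.992, and of 0.930, 0.937 and 0.940 without region means). Omg was most like Thtpa, Rnf214 and Ctps2 (0.951, 0.925 and 0.924), and Rtn4 like Mpc1, Ldhb and Cab39 (0.973, 0.972 and 0.972). Tnfrsf19 was the least closely matched, with Celsr1, Jun and Pdgfc (0.931, 0.906 and 0.898). By Spearman's rank correlation, 4 of the 24 genes chosen by r were still among the top 3. Among the 8 genes themselves, r without region means was 0.899 between Rtn4 and Omg and 0.849 between Rtn4r and Rtn4rl1. For Tnfrsf19 it ran from -0.404 (with Rtn4r) to 0.031 (with Rtn4) and was negative with each gene other than Rtn4.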

How the data were processed

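Total RNA of 5 regions of 4 rats was sequenced, and the submitters' processing notes name FastQC, MultiQC 1.6, TopHat2 2.1.0 and Cufflinks 2.2.1. The authors aligned paired reads of 51 bases to Rnor6 and deposited FPKM values per gene, with values under 0.1 raised to 0.1. The tools were run at their defaults, which do not use strand. The table gives no read numbers, so the depth behind a value is unknown and precision rests on the spread between animals, with 12497 to 13546 genes at 1 FPKM or more in a library. All 20 columns were matched to samples by title.

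Groups were taken from the sample titles. Tests used log2 FPKM with a floor of 0.1, for the 15210 genes with at least 1 FPKM in any library. Stimulation was tested in limma 3.58.1 (R 4.3.3, lmFit and eBayes with trend) on the 4 libraries of a region, regions on all 20 libraries with a mean for each region, and the difference of effects on differences within animals, 17 comparisons in all. All tests were two-sided, with Benjamini-Hochberg adjustment over all genes kept. A ratio was tested by exact permutation within animals. Other steps used Python 3.11.15, pandas 2.3.3, scipy 1.17.1, numpy 2.4.6 and matplotlib 3.10.9. The limma steps were tested on simulated data.

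The members, lists and tests were chosen with earlier results of these data known. Named beside the 8 genes were, for each, the 3 genes of highest Pearson's r, and from each list up to 2 genes in each direction with the largest called difference between white matter and cord and between regions 3 and 4. Genes named outside this rule (Crtac1, Ptprd, Ptprf, Egfr and Nf1) were chosen after their values were seen. Pirb and Adgrb1, and the markers Neurod2 and Pecam1, were not matched by symbol and are not analysed here under these names. Of the genes with the highest r, 2 are not reported here, and 1 cortical marker was left out of its list.

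Each animal gave a library of each region, and a group and number name it, per the labels. Deviations of 1 animal from the group means correlated by -0.14 to 0.65 over pairs of regions, and the fit with the animal as a replicate block is given beside a result where it changed a call. Same-numbered control and stimulated animals are different animals. Nothing beyond the animals says how libraries were replicated, and region comparisons without the block treat the libraries of 1 animal as independent. Alternatives were a pseudocount of 1, no filter, 1 FPKM in at least 2 libraries, quantile normalization, upper-quartile scaling, no trend, 1 entry per symbol, a model of all libraries, blocks, control libraries alone and each animal left out.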

Additional observations from a re-analysis of the deposited data

Results flagged for a closer look

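Of 48 groups of libraries examined, 3 held a library far from the others, and chance flags about 1 in 20 such groups. Lingo1 at the lesion was 4.23 FPKM in stimulated animal 1 and 4.86 to 4.87 in the other 3 libraries. Omg in region 1 was 29.2 FPKM in stimulated animal 2 and 50.6 to 51.8 in the others. Ptprs in white matter was 40.4 FPKM in region 1 of stimulated animal 2 and 47.8 to 53.6 in the other 7 libraries. The library of stimulated animal 2 from region 1 accounts for 2 of the 3.

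The 3 Nogo receptor family genes had opposite directions with stimulation in regions 1 and 5, with every stimulated library lower than control in region 1 and higher in region 5. Without overlap, 19.5% of all genes were lower in region 1 and 18.5% higher in region 5, and the share with both was not counted. Rtn4r and Rtn4rl1 also varied together, with an r of 0.849 without region means. The log2 fold changes in regions 5 and 1 were 0.39 and -0.45 for Rtn4r, 0.29 and -0.52 for Rtn4rl1, and 0.82 and -0.24 for Rtn4rl2. The difference of the effects was tested after the pattern had been seen, and limma called 0 of the 8 genes. On differences within animals, region 1 minus region 5, it was -0.84 (SE 0.34, adjusted p = 0.974) for Rtn4r, the 1 gene with an unadjusted p under 0.05, -0.81 (SE 0.34, adjusted p = 0.974) for Rtn4rl1 and -1.06 (SE 0.50, adjusted p = 0.974) for Rtn4rl2. In the model of all 20 libraries the adjusted p of these 3 genes was 0.937, with Rtn4r and Rtn4rl1 under 0.05 before adjustment. The share of all genes under 0.05 before adjustment was not counted for either fit. Rtn4rl2 in region 5 lay between 0.1 and 0.281 FPKM. Cortical excitatory neuron markers, lower with stimulation in region 1, summed to 2.23 to 2.24 FPKM in control and 3.55 to 3.63 in stimulated animals in region 5. Of these, Tbr1 and Emx1 stood at the floor in all 4 libraries of region 5, and the median log2 fold change was 0. In the same order of groups, Schwann cell markers summed to 159 to 194 and 362 to 369 FPKM there. Markers of neurons in general summed to 1419 to 1537 and 1421 to 1433, and those of spinal neurons to 118 to 126 and 106 to 112. In region 5, 0 markers of these types were called, and their part was not tested.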

How the results depend on the processing

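The 7 calls between white matter and cord were made under each alternative, except that Tnfrsf19 was not called with the control libraries alone (6 calls). Between regions 1 and 2 the count of 1 was 4 under quantile normalization, 4 under upper-quartile scaling, 2 with the animal as a replicate block and 0 to 1 with an animal left out. Between regions 3 and 4 the count of 4 was 0 to 5 with an animal left out, 3 with a pseudocount of 1 and 5 with the animal as a replicate block. Between regions 4 and 5 the count of 1 was 0 with a pseudocount of 1, without a filter, under upper-quartile scaling and with control libraries alone, 3 with the animal as a replicate block, and 0 to 1 with an animal left out. The animal block changed no call other than those given in the text. For stimulation, the replicate numbers as a block gave 1 call in region 5 (Rtn4rl2) and 0 in the other regions, where same-numbered libraries correlated by -0.21 to 0.32. Crossed pairs, chosen after seeing the data, gave 1 call in region 4 and 0 elsewhere.

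Log2 fold changes turned direction only for values that were not called, and the cause was not tested. Under quantile normalization these were stimulation in region 2 for Rtn4rl2 (-0.064), Lingo1 (-0.023) and Ptprs (-0.080), Omg between regions 1 and 2 (-0.014) and 1 and 5 (0.020), Tnfrsf19 between 2 and 4 (0.044) and 4 and 5 (0.030), Rtn4 (0.044) and Rtn4r (0.084) between 3 and 5, Rtn4rl2 between 4 and 5 (-0.037), and the difference of effects for Rtn4 (0.091) and Tnfrsf19 (0.042). Under upper-quartile scaling they were Rtn4rl2 (-0.026), Lingo1 (-0.018) and Ptprs (-0.087) in region 2, Omg between 1 and 2 (-0.053), Tnfrsf19 between 2 and 4 (0.014) and 4 and 5 (0.049), Rtn4rl2 between 3 and 4 (-0.030), Rtn4r between 3 and 5 (0.064), and the difference of effects for Rtn4 (0.040) and Tnfrsf19 (0.019). With control libraries alone they were Rtn4rl1 (0.050) and Ptprs (0.066) between 1 and 2, Tnfrsf19 between 2 and 3 (-0.049), Rtn4rl2 between 3 and 4 (-0.037) and Rtn4r between 3 and 5 (0.20).

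With an animal left out, stimulation ran from -0.42 to 0.14 for Rtn4 and -0.80 to 0.027 for Omg in region 1, from -0.24 to 0.13 for Rtn4, -0.21 to 0.37 for Rtn4rl2, -0.074 to 0.25 for Lingo1 and -0.051 to 0.091 for Ptprs in region 2, and from -0.33 to 0.11 for Rtn4r and -0.24 to 0.067 for Rtn4rl1 in region 3. In region 4 it ran from -0.24 to 0.16 for Rtn4, -0.037 to 0.21 for Rtn4rl1, -0.20 to 0.0035 for Lingo1, -0.22 to 0.13 for Omg and -0.064 to 0.27 for Tnfrsf19, and in region 5 from -0.16 to 0.014 for Rtn4, -0.032 to 0.27 for Tnfrsf19 and -0.17 to 0.039 for Ptprs. Between regions, it was -0.17 to 0.0068 for Rtn4rl1 and -0.082 to 0.14 for Omg (1 and 2), -0.030 to 0.073 for Omg and -0.23 to 0.045 for Tnfrsf19 (2 and 4), -0.16 to 0.29 for Rtn4rl2 (3 and 4), -0.26 to 0.12 for Rtn4r and -0.17 to 0.33 for Rtn4rl2 (3 and 5), and -0.38 to 0.30 for Rtn4rl2 (4 and 5). The difference of effects ran from -0.34 to 0.15 for Rtn4, -0.51 to 0.067 for Omg and -0.35 to 0.12 for Tnfrsf19. With 2 animals a group, only the spread between 2 libraries stands behind each stimulation value, and where 1 is left out the lone library is assumed to vary like the others.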
